A study of Mus musculus with 4 samples.

Results

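The receptor-negative luminal progenitor cells described here were 2470 of 19382 barcodes in single-cell RNA-seq of mouse mammary organoids. They were chosen by their counts of unique molecular identifiers (UMIs, counted RNA molecules). A chosen cell had at least 3000 UMIs and at most 15% mitochondrial UMIs. Per 10000 UMIs it held at least 10 of the luminal keratins Krt8 and Krt18, at least 50 of Lcn2, under 10 of the basal keratins Krt5, Krt14 and Krt17, under 10 of the fibroblast collagens Col1a1, Col1a2 and Col3a1, and under 5 of the macrophage genes C1qa, C1qb and Tyrobp. It also had at most 1 UMI of the hormone receptors Prlr, Esr1 and Pgr and their partner Cited1 combined. The organoids came from mammary fat pads, without lymph nodes, of virgin mice 8 to 9 weeks old, and the strain is not given in the sources used here. They were grown in 4 conditions, which the labels call collagen (COL1), stiff (STIFF), Matrigel (MATR, a commercial basement membrane gel) and soft (SOFT). Cells of each culture were labelled with an antibody carrying a DNA hashtag. COL1 and STIFF cells were then pooled on 1 microfluidic channel (the COL1-STIFF pool), and MATR and SOFT cells on the other (the MATR-SOFT pool).

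In the mammary epithelium, luminal progenitors of the alveolar lineage lack the oestrogen and progesterone receptors, depend on the transcription factor Elf5, carry the receptor tyrosine kinase Kit, and give rise to milk-secreting cells. They already transcribe some milk protein genes in virgin animals and secrete antimicrobial and iron-binding proteins. Their neighbours, the receptor-positive luminal cells, sense prolactin, oestrogen and progesterone and send paracrine signals such as amphiregulin (Areg) and Wnt4. Basal cells express Krt5, Krt14 and contractile genes such as Acta2 and Tagln.

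Each condition is represented by 1 culture and each pool by 1 library, so no comparison below has a replicate check, and no p-value is given. Intervals are 95% and cover counting error only. Levels are UMIs summed over cells and expressed as CPM, counts per 1000000 UMIs. A log2 ratio is taken on CPM plus 10, which understates the difference of low genes, and a gene is counted as higher or lower when this ratio is at least 1.5-fold. Between the pools, the channel and the conditions cannot be told apart.

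The COL1-STIFF pool held 1201 of these progenitor cells, which was 15.7% (14.9 to 16.5, Clopper-Pearson) of its barcodes past the depth and mitochondrial limits. The MATR-SOFT pool held 1269, or 16.5% (15.7 to 17.4). Their median depth was 8839 UMIs and 2530 genes per cell in the COL1-STIFF pool and 10479 UMIs and 2857 genes in the MATR-SOFT pool. The receptor-positive luminal cells used for comparison had at least 4 receptor UMIs and under 50 Lcn2 UMIs per 10000. They numbered 2282 in the COL1-STIFF pool and 3152 in the MATR-SOFT pool, at median depths of 11530 and 12319.5 UMIs. The pools shared 22 barcodes in all and 1 among the progenitor cells. A doublet caller placed 7 progenitor cells of the COL1-STIFF pool and 11 of the MATR-SOFT pool among the top 5% of scores. By contrast, 11.1% and 21.3% of the cells with both Lcn2 and receptor UMIs in these pools were placed there.

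Of 2710 Lcn2-high luminal cells in the COL1-STIFF pool and 2665 in the MATR-SOFT pool, 1201 and 1269 passed the limit on receptor UMIs. Among them, 682 in the COL1-STIFF pool and 765 in the MATR-SOFT pool had no receptor UMI, and 519 and 504 had 1. Just outside, 294 and 287 had 2, and 949 and 837 had 5 or more. Depth moved with this count. Median UMIs were 8071.5 in the COL1-STIFF pool and 9621 in the MATR-SOFT pool for cells with no receptor UMI, and 14280 and 18561 for cells with 2 or 3. At the Lcn2 limit the cells were sparse. Those between 50 and 60 UMIs of Lcn2 per 10000 numbered 18 in the COL1-STIFF pool and 28 in the MATR-SOFT pool, and those between 40 and 50, just outside, numbered 10 and 14.

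Set against receptor-positive cells, the progenitor cells showed the markers of the alveolar lineage and almost none of the receptors. Csn3, the kappa-casein gene, had 10429 CPM in progenitor cells of the COL1-STIFF pool against 412 CPM in its receptor-positive cells. In the MATR-SOFT pool it had 7196 against 221 CPM. Wfdc18, a secreted whey-acidic-protein family member, had 4135 CPM in progenitor cells against 219 CPM in receptor-positive cells of the COL1-STIFF pool, and 3747 against 192 CPM in the MATR-SOFT pool. Ltf, the iron-binding lactoferrin, had 608 against 19.7 CPM in the COL1-STIFF pool and 709 against 29.1 CPM in the MATR-SOFT pool, in the same order of cell types. Elf5 was at 321 CPM in progenitor cells and 21.0 CPM in receptor-positive cells of the COL1-STIFF pool, and at 309 and 15.6 CPM in the MATR-SOFT pool. Kit was at 131 and 8.73 CPM in the COL1-STIFF pool and at 116 and 5.37 CPM in the MATR-SOFT pool. Both are regulators of the lineage rather than its products, and both were at least 10 times as high in the progenitor cells.

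The 7th marker, Aldh1a3, a retinaldehyde dehydrogenase, separated the cells less. It had 12.7 CPM in progenitor cells against 6.74 CPM in receptor-positive cells of the COL1-STIFF pool, and 20.2 against 6.01 CPM in the MATR-SOFT pool. Cells in the fibroblast gate had 34.1 and 9.60 CPM of it in these pools. Lcn2 itself, the iron-scavenging lipocalin used for the choice, had 23526 CPM in progenitor cells of the COL1-STIFF pool and 20707 CPM in those of the MATR-SOFT pool, against 939 and 767 CPM in receptor-positive cells. The receptors, also used for the choice of both classes, were lower than in receptor-positive cells. Prlr had 35.5 and 27.4 CPM in progenitor cells of the COL1-STIFF and MATR-SOFT pools, against 2777 and 2044 CPM in receptor-positive cells. Pgr had 1.45 and 1.22 CPM in progenitor cells of the COL1-STIFF and MATR-SOFT pools, against 236 and 226 CPM in receptor-positive cells. Progenitor cells also held less of the luminal keratins. Krt18 was at 2383 CPM in progenitor cells and 4156 CPM in receptor-positive cells of the COL1-STIFF pool, and at 2392 and 4043 CPM in the MATR-SOFT pool.

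**Figure D1:**
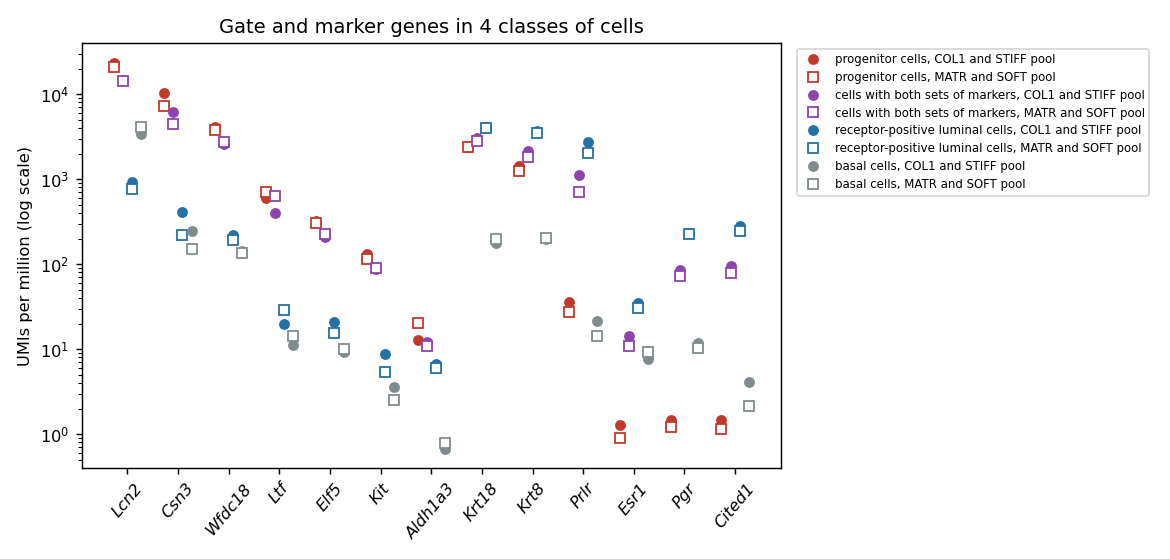
Summed levels in CPM on a log axis of the 7 progenitor markers, 2 luminal keratins and 4 hormone-related genes, for 4 cell classes in each pool. The progenitor cells hold the highest levels of Lcn2, Csn3, Wfdc18, Ltf, Elf5 and Kit of these classes in both pools, and among the lowest of Prlr, Esr1, Pgr and Cited1.

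Markers of other cell types were low but not all absent. The choice capped the basal keratins, fibroblast collagens and macrophage genes among these markers, so their low sums were partly set in advance. Basal cells and the macrophage gate were chosen to be high in the same genes. The summed CPM of 13 basal markers was 378 in progenitor cells of the COL1-STIFF pool and 290 in those of the MATR-SOFT pool, against 11946 and 12304 in basal cells. The sum of 8 fibroblast markers was 54.6 and 39.2 CPM in progenitor cells of these pools, and that of 9 macrophage markers was 122 and 123 CPM, against 52223 and 53495 CPM in the macrophage gate. All 6 adipocyte markers were at 3 UMIs or fewer. Lcn2 was also counted in the macrophage gate, at 553 CPM in the COL1-STIFF pool and 348 CPM in the MATR-SOFT pool. The part of free RNA in the low levels was not tested.

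Of 8250 genes measured, 826 were at least 1.5-fold higher in progenitor cells than in receptor-positive cells in both pools (10.0%), and 1374 were lower in both (16.7%). The median log2 ratio over all measured genes was -0.13. Among the lists of gene function, those of secreted proteins had the highest medians. Of 15 listed milk protein genes, 7 passed the floor of 10 CPM, and all 7 were higher, with a median log2 ratio of 4.2. Beside Csn3, Wfdc18 and Ltf they were Csn1s1 (alpha-casein), Mfge8, Muc1 and Xdh. Of 24 listed acute phase and antimicrobial genes, 19 passed the floor, 15 were higher and 3 (Wfdc2, Defb1 and Reg3b) were lower, with a median of 2.82. These lists were drawn up with results of these data in view, and the choice of cells by Lcn2 bears on this whole comparison, so the counts are a description.

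Among single secreted products, the serum amyloid A genes differed by the widest margins. Saa1 had 4043 CPM in progenitor cells against 91.2 CPM in receptor-positive cells of the COL1-STIFF pool (44.3-fold), and 3636 against 45.0 CPM in the MATR-SOFT pool (80.7-fold). Saa2 had 1567 against 35.9 CPM (43.7-fold) in the COL1-STIFF pool and 1356 against 15.1 CPM (89.9-fold) in the MATR-SOFT pool. Chil1, a chitinase-like protein, was 34.3-fold higher in the COL1-STIFF pool, at 7735 against 225 CPM, and 47.0-fold higher in the MATR-SOFT pool, at 5495 against 117 CPM. Spp1, the secreted phosphoprotein osteopontin, was 25.2-fold higher in the COL1-STIFF pool and 31.4-fold higher in the MATR-SOFT pool. It had 33291 CPM in progenitor cells of the COL1-STIFF pool against 1319 CPM in receptor-positive cells, and 24280 against 774 CPM in the MATR-SOFT pool. Trf (transferrin), Lbp (lipopolysaccharide-binding protein) and Lrg1 (a plasma glycoprotein of inflammation) were also among the 15 genes furthest above receptor-positive cells. Trf was at 5615 CPM in progenitor cells and 249 CPM in receptor-positive cells of the COL1-STIFF pool, and at 4405 and 151 CPM in the MATR-SOFT pool.

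Saa1 and Saa2 are near-identical neighbours on chromosome 7, so reads may be divided between them uncertainly. The 250 bases before the start of Saa2 and of Lcn2 are from RefSeq on GRCm38.p6. They are shown because both genes encode secreted proteins and were higher in progenitor than in receptor-positive cells, as were genes of C/EBP transcription factors. Capitals mark the letters TTGCNNAA, the core of a C/EBP site, searched on both strands. The Saa2 window (chr7:46751583-46751832, plus strand) and the Lcn2 window (chr2:32387740-32387989, minus strand) read, 5′ to 3′ on the strand of the gene:
Saa2: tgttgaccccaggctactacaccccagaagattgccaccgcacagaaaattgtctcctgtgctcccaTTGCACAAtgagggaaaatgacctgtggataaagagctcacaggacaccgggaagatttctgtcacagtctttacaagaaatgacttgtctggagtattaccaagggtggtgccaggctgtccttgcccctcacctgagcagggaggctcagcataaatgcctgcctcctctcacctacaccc
Lcn2: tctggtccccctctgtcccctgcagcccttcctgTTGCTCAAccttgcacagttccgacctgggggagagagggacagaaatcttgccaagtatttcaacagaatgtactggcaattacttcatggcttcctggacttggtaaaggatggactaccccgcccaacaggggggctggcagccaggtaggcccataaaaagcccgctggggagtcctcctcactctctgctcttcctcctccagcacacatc
The match begins 183 bases before the start of Saa2 and 216 before that of Lcn2. The letters are common, being found in 3142 of 32851 windows of this length (9.56%), and a match in a window is a description, not a binding site.

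Of 20 listed transcription factors of the alveolar and progenitor programme, 18 passed the floor, 10 were higher and 4 were lower in progenitor cells than in receptor-positive cells, with a median log2 ratio of 1.38. Hey1, a target of Notch signalling, was at 258 CPM in progenitor cells and 13.9 CPM in receptor-positive cells of the COL1-STIFF pool, and at 228 and 8.98 CPM in the MATR-SOFT pool. Sox10, a factor of progenitor and neural crest cells, was at 141 and 10.8 CPM in the COL1-STIFF pool and at 130.3 and 7.72 CPM in the MATR-SOFT pool. Cebpb, a C/EBP factor needed for alveolar development, was at 1764 and 338 CPM in the COL1-STIFF pool and at 1914 and 401 CPM in the MATR-SOFT pool. Elf5, Ehf, Nfib, Cebpd, Id2, Foxc1 and Creb3l1 were also higher. The 4 lower ones were Elf3, Gata3, Runx1 and Stat5a. Stat5a, which carries prolactin signals to milk genes, had 7.88 CPM in progenitor cells against 44.7 CPM in receptor-positive cells of the COL1-STIFF pool.

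Of 14 listed surface and enzyme genes of progenitors, 13 passed the floor, 6 were higher and 1 was lower. Cd14, a receptor for bacterial lipopolysaccharide, was at 654 CPM in progenitor cells of both pools, against 71.7 CPM in receptor-positive cells of the COL1-STIFF pool and 82.7 CPM in those of the MATR-SOFT pool. Kit, Aldh2, Tnfrsf11a (the RANK receptor), Cd55 and Met were the other higher ones. Ly6d was the lower one, at 571 against 4509 CPM in the COL1-STIFF pool and 548 against 6352 CPM in the MATR-SOFT pool. Lipid synthesis and uptake followed the secreted products, with 13 of 18 listed genes past the floor, 8 of them higher and none lower. Scd1, a fatty acid desaturase, had 2530 CPM in progenitor cells against 260 CPM in receptor-positive cells of the COL1-STIFF pool, and 3121 against 312 CPM in the MATR-SOFT pool. Fabp5, a fatty acid binding protein, and Thrsp, a regulator of fatty acid synthesis in the mammary gland, were among the 8.

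The genes lower in progenitor cells included the signals, keratins and glycolytic enzymes of receptor-positive cells. Areg, the growth factor that relays oestrogen signalling, had 25.6 CPM in progenitor cells against 3265 CPM in receptor-positive cells of the COL1-STIFF pool, and 19.7 against 2798 CPM in the MATR-SOFT pool. Wnt4, the relay of progesterone, had 3.21 against 310.5 CPM in the COL1-STIFF pool and 4.09 against 351 CPM in the MATR-SOFT pool. Of 12 listed keratins 10 passed the floor and 9 were lower, with a median log2 ratio of -2.39; Krt19 was at 982 CPM in progenitor cells and 9925 CPM in receptor-positive cells of the COL1-STIFF pool. All 14 listed glycolysis genes passed the floor and 11 were lower (median -1.19), including Gapdh, at 1148 against 4942 CPM in the COL1-STIFF pool. Of 12 hypoxia-induced genes 8 were lower and 2, Egln3 and Car9, were higher. Of 11 listed genes of antigen presentation on MHC class I, 10 passed the floor and 8 were lower (median -0.95). H2-K1 had 1103 CPM in progenitor cells against 2259 CPM in receptor-positive cells of the COL1-STIFF pool, and 1018 against 1961 CPM in the MATR-SOFT pool.

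Within the progenitor cells, genes of secreted products were among those with the most variance from cell to cell for their mean. Every cell was thinned to 3000 UMIs, and the variance of each gene was divided by its mean, a ratio near 1 being that of counting alone. The median ratio over 2203 genes of at least 50 CPM was 1.03. This ratio can rise with the level of a gene, so it does not rank genes of unlike level by relative spread. Spp1 had a ratio of 74.5 in the COL1-STIFF pool and 67.3 in the MATR-SOFT pool, Saa1 one of 36.8 and 52.9, Saa2 one of 26.6 and 35.1, and Csn3 one of 22.3 and 27.2. Malat1, a nuclear RNA and not a secreted product, had one of 23.2 in the MATR-SOFT pool. Saa1 was thus present in some cells and not counted in others. It had no UMI in 30.6% of thinned progenitor cells of the COL1-STIFF pool and 44.1% of those of the MATR-SOFT pool, and up to 237 and 233 UMIs in single cells. Ltf had no UMI in 68.2% and 64.0% of cells in these pools, with maxima of 83 and 80. Across cells, Saa1 and Saa2 had a Spearman correlation of 0.76 in each pool and Lcn2 and Saa1 one of 0.42 and 0.43. The cells of a pool share 1 library, and Saa1 and Saa2 share sequence.

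Clustering the progenitor cells alone at a resolution of 0.3 gave 5 groups, which are named here by their leading genes and not as cell types. The largest held 1213 cells and was led by Ndrg1, Snorc and Ero1l, with Ndrg1 at 261 CPM against 112 CPM in the other progenitor cells. A group of 816 cells was led by the Saa genes, Lalba and Chil1. Saa1 was at 9387 CPM in it and at 785 CPM in the other progenitor cells, and Csn3 was at 13474 and 5994 CPM. A group of 383 cells was led by Igfbp7, Tagln, Fst and Col8a1. It had 318 CPM of Tagln, an actin-binding protein of contractile cells, against 14.8 CPM in the other progenitor cells, and 321 against 93.2 CPM of the basal keratin Krt14. These 383 cells had lower levels of most of the lineage markers, with Csn3 at 2366 against 10039 CPM, Elf5 at 173 against 346 CPM and Kit at 66.5 against 135 CPM, while Aldh1a3 was at 41.2 against 11.4 CPM. Their median depth was 11338 UMIs, and 16 of the 18 progenitor cells with the highest doublet scores lay in this group; the part of doublets or of basal cell RNA was not tested. A group of 49 cells led by Ube2c, Birc5, Top2a and Mki67, genes of dividing cells, had a median of 14541 UMIs. The last group had 9 cells, all in the COL1-STIFF pool, at a median of 4393 UMIs. A finer resolution of 0.6 gave 7 groups.

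**Figure D2:**
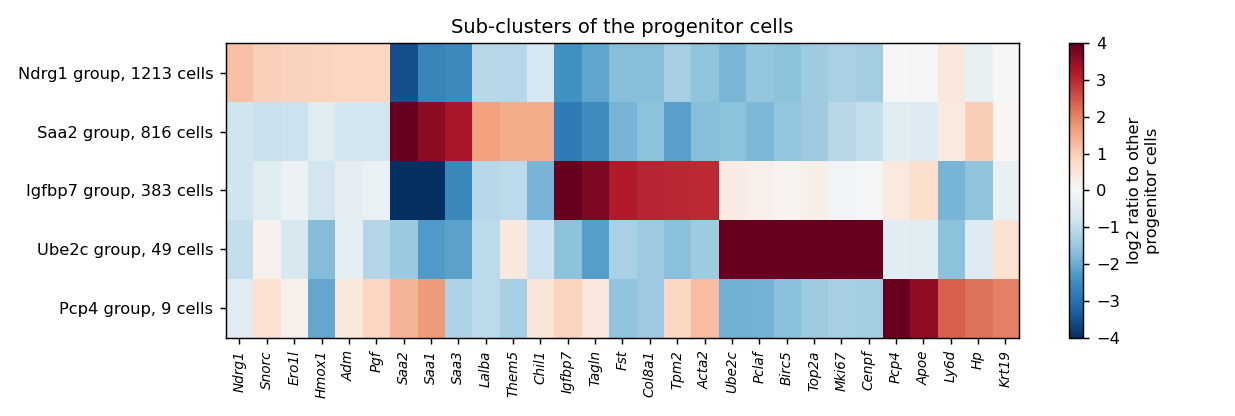
Heat map of log2 ratios of summed CPM, each of 5 groups of progenitor cells over the other progenitor cells. The genes are leading genes of the groups, and colour is limited to 4 in either direction. The group of 383 cells led by Igfbp7 and Tagln is high in contractile and matrix genes. It is low in the Saa genes, which are high in the group of 816 cells.

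Between pools, taking all progenitor cells whether tagged or not, few genes differed. Of 7792 measured, 37 were at least 1.5-fold higher (0.475%) and 15 lower (0.193%) in the COL1-STIFF pool than in the MATR-SOFT pool, and the median log2 ratio of all measured genes was -0.02. The higher ones included early response genes, which are induced within minutes by many stimuli and by tissue dissociation. Atf3, a stress-induced AP-1 family factor, was at 482 CPM in the COL1-STIFF pool and 189 CPM in the MATR-SOFT pool, 2.56-fold (2.45 to 2.67) higher. Klf2 was at 536 and 243 CPM in these pools (2.20-fold, 2.12 to 2.29) and Klf6 at 736 and 361 CPM (2.04-fold, 1.97 to 2.11); both are zinc-finger factors of early responses. Cxcl1, a chemokine for neutrophils, was at 98.4 CPM in the COL1-STIFF pool and 39.0 CPM in the MATR-SOFT pool (2.52-fold, 2.29 to 2.78). Nfkbia, the inhibitor and target of NF-kB, was at 332 and 174 CPM (1.91-fold, 1.82 to 2.01). S100a8, a subunit of the antimicrobial calprotectin, was at 55.3 and 28.1 CPM (1.97-fold, 1.75 to 2.22).

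By list, 3 of 8 measured AP-1 subunits (Fos, Fosb and Atf3), 5 of 13 immediate early genes (Klf2, Klf4, Klf6, Dusp1 and Nr4a1) and 5 of 12 NF-kB and inflammatory genes (Nfkbia, Nfkbiz, Tnfaip3, Cxcl1 and Cxcl2) were higher in the COL1-STIFF pool. Their median log2 ratios were 0.51, 0.23 and 0.27. Atf3 and Klf6 were also higher in other cells of that pool. Atf3 was at 771 CPM in receptor-positive cells and 93.5 CPM in basal cells of the COL1-STIFF pool, and at 346 and 37.7 CPM in those of the MATR-SOFT pool. Klf6 was at 1071 CPM in receptor-positive cells and 131 CPM in basal cells of the COL1-STIFF pool, and at 732 and 70.3 CPM in those of the MATR-SOFT pool. The part of the channel or of dissociation in these differences was not tested. None of the measured milk protein genes, alveolar transcription factors, progenitor surface genes, acute phase genes or MHC class I genes reached 1.5-fold between the pools.

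Among the genes lower in the COL1-STIFF pool was Ndrg1, a hypoxia-induced stress gene, at 115 CPM there and 226 CPM in the MATR-SOFT pool, 1.96-fold (1.85 to 2.08) lower. Ero1l, an oxidase of the endoplasmic reticulum, was at 59.3 and 107 CPM in these pools, both under its lowest level in any other cell class (67.1 and 118 CPM). Ndrg1 and Ero1l were the 2 of 12 hypoxia genes that reached 1.5-fold, and the list had a median of -0.33. At the finer resolution of 0.6, a group led by Ndrg1, Ero1l, Hmox1 and Vegfa held 83 progenitor cells of the COL1-STIFF pool (6.91%) and 283 of the MATR-SOFT pool (22.3%), so the cells of the pools lay in different groups for these genes. Its size is no result of its own, since its leading genes differ between the pools. Thbs1, the matrix protein thrombospondin, was at 139 CPM in the COL1-STIFF pool and 239 CPM in the MATR-SOFT pool (1.72-fold lower), and Timp3, a metalloproteinase inhibitor, at 46.6 and 80.3 CPM (1.72-fold lower). Espn, an actin-bundling protein, was at 25.6 and 56.1 CPM (2.19-fold lower, 1.93 to 2.49). Timp1, another inhibitor of this family, was at 36.2 CPM in the COL1-STIFF pool and 57.7 CPM in the MATR-SOFT pool, a log2 ratio of -0.55. That of Timp1 was -0.02 without the 383 cells led by Igfbp7 and Tagln. Isg15, an interferon-induced gene, was at 99.2 and 149 CPM (1.51-fold lower), and none of 14 measured interferon-stimulated genes reached 1.5-fold on the log2 scale used, with a median of -0.32.

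**Figure D3:**
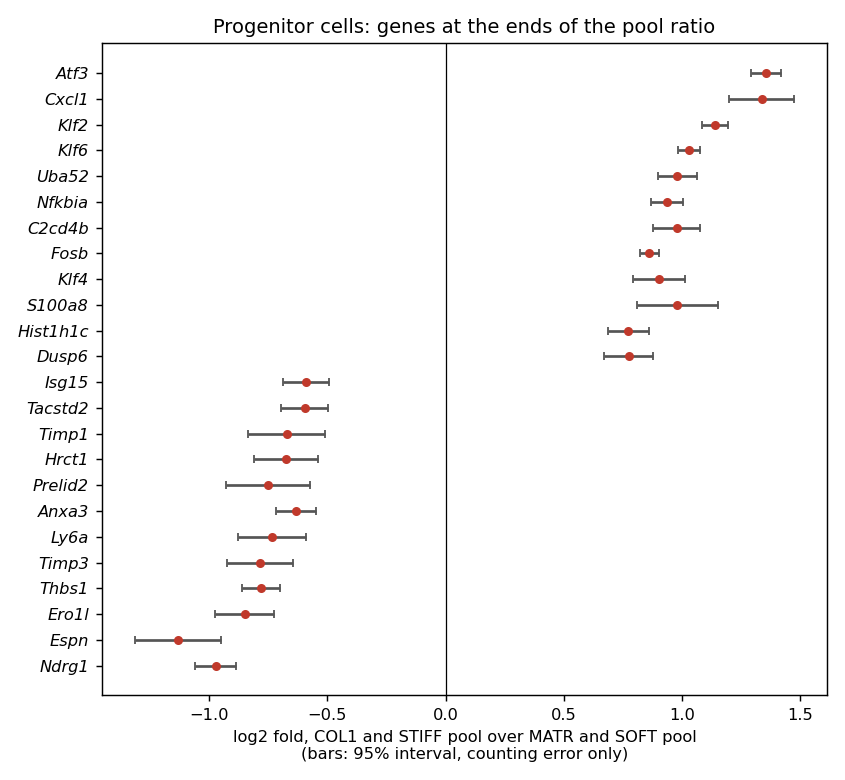
Log2 of the plain CPM ratio, without the added 10, in progenitor cells, COL1-STIFF pool over MATR-SOFT pool, for 24 genes. Bars give the 95% interval of counting error. Atf3, at a ratio of 2.56 before the log, is the highest, and Espn, at 0.457, is the lowest.

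The single cultures can be compared only through the hashtags, and most progenitor cells carried too few hashtag counts for a call. HTODemux, the demultiplexing method of Seurat, left 986 of 1201 progenitor cells of the COL1-STIFF pool (82.1%, 79.8 to 84.2) and 1004 of 1269 of the MATR-SOFT pool (79.1%, 76.8 to 81.3) without a tag. Among receptor-positive cells the untagged share was 25.8% and 26.7% in these pools. Transcripts of MHC class I, one of the surface proteins that mouse hashtag antibodies bind, were lower in untagged progenitor cells, and the part of this in tagging was not tested. H2-K1 was at 1357 CPM in tagged and 1012 CPM in untagged progenitor cells of the COL1-STIFF pool, and at 1349 and 857 CPM in those of the MATR-SOFT pool. Tagged cells were also deeper, with medians of 12881.5 UMIs against 8184 in untagged cells of the COL1-STIFF pool and 17397 against 9612 in the MATR-SOFT pool. The summed basal markers were higher in tagged cells, at 586 against 306 CPM in the COL1-STIFF pool and 352 against 244 CPM in the MATR-SOFT pool. Of the group of 383 cells led by Igfbp7 and Tagln, 39.2% were tagged. In the groups of 1213, 816 and 49 cells the tagged shares were 13.0%, 19.2% and 16.3%. Tagged and untagged progenitor cells thus differed in depth, in basal marker level and in how often they belonged to those 383 cells.

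HTODemux called 142 progenitor cells for COL1, 68 for STIFF, 125 for MATR and 138 for SOFT, at median depths of 10658, 20285, 15648 and 18978 UMIs. They were 9.81% of all COL1 calls (8.32 to 11.5), 2.80% of STIFF calls (2.18 to 3.54), 5.43% of MATR calls (4.54 to 6.44) and 7.19% of SOFT calls (6.08 to 8.44). A second rule, which calls a cell for the tag that leads the other at least 2 times after division by its background, called 234, 731, 382 and 692 cells. Under it the shares were 14.6% of COL1 calls, 14.5% of STIFF calls, 13.2% of MATR calls and 17.1% of SOFT calls. The order of the cultures therefore depended on the tag rule, and no order of progenitor shares is given. Levels below are from HTODemux, with the log2 ratio of the second rule beside them.

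Of 8182 genes measured in COL1 and STIFF, 293 were at least 1.5-fold higher (3.58%) and 175 lower (2.14%) in COL1 progenitor cells, or 236 and 229 after TMM scaling. Under both tag rules 84 were higher (1.03%) and 41 lower (0.501%), and the median log2 ratio of all measured genes was 0.02. In COL1, 5 of 15 measured matrix and protease genes (3 under the second rule) and 3 of 9 basal markers (2 under the second rule) were higher than in STIFF, and none was lower, with medians of 0.47 and 0.49. Without the 383 cells led by Igfbp7 and Tagln these medians were 0.01 and 0.04. Under the second rule that group made up 61 of 234 COL1 cells and 82 of 731 STIFF cells. Ccn2, a matrix-associated target of YAP, was at 238 CPM in COL1 and 58.8 CPM in STIFF, 4.05-fold (3.22 to 5.13) higher, with log2 ratios of 1.85 and, under the second rule, 0.85, and 0.86 without the 383 cells. Igfbp7, a secreted binding protein for insulin-like growth factors, was at 622 CPM in COL1 and 201 CPM in STIFF (3.10-fold, 2.73 to 3.53; log2 1.58 and 1.28, and 0.90 without those cells). Postn, the matrix protein periostin, was at 526 and 194 CPM (2.71-fold, 2.38 to 3.10; log2 1.39 and 0.89, and 0.72 without those cells). Ly6a, the surface protein Sca-1, was at 118 CPM in COL1 and 39.6 CPM in STIFF (log2 1.37 and 1.54), but its lowest level in any other cell class was 51.2 CPM, and its ratio was 0.21 without the 383 cells led by Igfbp7 and Tagln. Tagln had a log2 ratio of 1.53, and of 0.57, short of 1.5-fold, under the second rule. Unlike the ratios of the genes above, that of Tagln was larger, at 2.16, without the 383 cells.

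In COL1 over STIFF, 8 of 12 hypoxia genes were higher (median log2 0.71, or 0.61 with 6 higher under the second rule). They were Ndrg1, Ero1l, Vegfa, Ankrd37, Bnip3, Adm, Ddit4 and P4ha1. Ndrg1 was at 177 CPM in COL1 and 77.4 CPM in STIFF (2.29-fold, 1.85 to 2.85; log2 1.10 and 0.80, and 0.74 without the 383 cells). Without the 383 cells led by Igfbp7 and Tagln the median of the list was 0.48. Of 10 measured milk protein genes 5 were lower in COL1 (Csn1s1, Csn2, Csn3, Lalba and Wfdc18), with a median of -0.61, against -0.43 and 2 lower under the second rule, and -0.41 without the 383 cells. Csn1s1 was at 431 CPM in COL1 and 900 CPM in STIFF (2.09-fold lower, 1.91 to 2.28; log2 -1.04 and -0.71). The antimicrobial S100a8 was at 32.6 CPM in COL1 and 97.8 CPM in STIFF (3.0-fold lower, 2.20 to 4.15; log2 -1.34 and -0.84), and Pdzk1ip1, a membrane-associated protein, at 90.2 and 210 CPM (2.33-fold lower, 1.92 to 2.84; log2 -1.14 and -0.88). Saa1 was at 2877 CPM in COL1 and 5147 CPM in STIFF (log2 -0.84), but its ratio was -0.10 under the second rule, at 4016 and 4317 CPM. Of 13 measured G2/M genes 11 were lower in COL1 (median -0.96), or 9 under the second rule (median -0.75). When thinned to 3000 UMIs, 8.45% of COL1 cells (4.44 to 14.3) and 7.35% of STIFF cells (2.43 to 16.3) had at least 2 G2/M UMIs. Under the second rule these shares were 7.26% and 7.93%.

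Of 8096 genes measured in MATR and SOFT, 89 were higher (1.10%) and 232 lower (2.87%) in MATR progenitor cells, or 141 and 146 after TMM scaling. Under both tag rules 22 were higher (0.272%) and 76 lower (0.939%), and the median of all measured genes was -0.09. In MATR, 4 of 6 measured basal markers (Krt14, Krt17, Acta2 and Tagln) were lower than in SOFT, with a median of -0.65, against 2 and -0.42 under the second rule and a median of 0.28 without the 383 cells led by Igfbp7 and Tagln. Timp1 was at 34.8 CPM in MATR and 148 CPM in SOFT, 4.26-fold (3.36 to 5.47) lower, with log2 ratios of -1.82 and, under the second rule, -1.30. Tagln was at 28.4 CPM in MATR and 125 CPM in SOFT (log2 -1.81 and -1.44). Without these 383 cells the ratio was -0.17 for Timp1 and 0.25 for Tagln. That group was formed from the same counts and is led by Tagln, so leaving it out does not show where the difference arose. Foxq1, a forkhead transcription factor, was at 18.1 CPM in MATR and 80.9 CPM in SOFT (4.48-fold lower, 3.22 to 6.38; log2 -1.70 and -1.54). Timp3 was at 52.9 and 136 CPM (2.57-fold lower, 2.10 to 3.17; log2 -1.21 and -0.72). Of 14 measured matrix and protease genes 6 were lower in MATR (Fn1, Tnc, Mmp14, Timp1, Timp3 and Plat), with a median of -0.36, or -0.30 with 4 lower under the second rule and -0.22 without the 383 cells.

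Csn1s1 was at 745 CPM in MATR and 305 CPM in SOFT, 2.44-fold (2.25 to 2.65) higher, with log2 ratios of 1.26 and 0.56. Of 9 measured milk protein genes 5 were higher in MATR, with a median of 0.60, but none reached 1.5-fold under the second rule, with a median of 0.21. Of 8 measured AP-1 subunits 3 were higher in MATR, against 1 higher and 1 lower under the second rule, and of 13 immediate early genes 6 were higher, against 2 under the second rule. Klf2 was at 332 CPM in MATR and 166 CPM in SOFT (2.0-fold, 1.78 to 2.24), with a log2 ratio of 0.96, and of 0.51, short of 1.5-fold, under the second rule. Pdzk1ip1 was at 139 and 59.7 CPM (2.33-fold, 1.93 to 2.81; log2 1.09 and 0.94) and Atp6v1b1, a subunit of the proton pump, at 200 and 94.8 CPM (2.11-fold, 1.81 to 2.45; log2 1.0 and 0.74). These 2 ratios stayed past 1.5-fold under both rules. Saa3 was at 81.7 CPM in MATR and 32.4 CPM in SOFT (log2 1.11), but at 66.2 and 73.2 CPM under the second rule, which turned its direction (log2 -0.13).

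COL1 and MATR progenitor cells came from different channels. Of 8082 genes measured, 288 were higher (3.56%) and 79 lower (0.977%) in COL1, or 201 and 151 after TMM scaling. Under both tag rules 158 were higher (1.95%) and 20 lower (0.247%), and the median of all measured genes was 0.04. Of 13 measured NF-kB and inflammatory genes 8 were higher in COL1 (median 0.62, or 0.44 with 6 higher under the second rule). Of 8 measured AP-1 subunits 4 were higher in COL1 under each rule (Fos, Fosb, Atf3 and Maff), with a median of 0.60. Of 13 immediate early genes 4 were higher (median 0.46, or 0.31 with 3 higher under the second rule). Cxcl1 was at 121 CPM in COL1 and 37.0 CPM in MATR (3.28-fold, 2.54 to 4.26; log2 1.48 and 1.55). Hbegf, a ligand of the EGF receptor, was at 121 and 34.8 CPM (3.48-fold, 2.68 to 4.55; log2 1.55 and 1.30). Igfbp7 was at 622 CPM in COL1 and 204 CPM in MATR (3.05-fold, 2.74 to 3.41; log2 1.57 and 1.87, and 0.74 without the 383 cells it leads). Of 9 measured basal markers 6 were higher in COL1 (Krt14, Acta2, Tagln, Cnn1, Trp63 and Sparc), with a median of 0.78. Without the 383 cells led by Igfbp7 and Tagln that median was 0.16, and the ratio of Acta2 was 0.01 and that of Sparc 0.16, against 1.45 and 1.80 with them.

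The genes lower in COL1 than in MATR included 3 of 9 measured milk protein genes (Csn1s1, Csn2 and Wfdc18), with a median of -0.37. Under the second rule 2 of them (Wfdc18 and Ltf) were lower, with a median of -0.27. Without the 383 cells led by Igfbp7 and Tagln the median was -0.16. Ly6d, a surface protein gene higher in receptor-positive than in progenitor cells, was at 373 CPM in COL1 and 824 CPM in MATR. It was 2.21-fold (2.02 to 2.42) lower in COL1, with log2 ratios of -1.12 and -1.05 under the second rule. Wfdc18 was at 2491 CPM in COL1 and 4460 CPM in MATR (1.79-fold lower, 1.73 to 1.86; log2 -0.84 and -0.70, and -0.58 without the 383 cells led by Igfbp7 and Tagln). Cbr2, a carbonyl reductase, was at 39.0 and 74.8 CPM (1.92-fold lower, 1.44 to 2.58; log2 -0.79 and -0.85, and -1.61 without those cells). Csn1s1 was at 431 and 745 CPM, with log2 ratios of -0.77 and -0.48. Egln3, a prolyl hydroxylase that marks HIF for degradation, was at 103 and 211 CPM, with log2 ratios of -0.97 and -0.54. Csn1s1 and Egln3 were thus not past 1.5-fold under the second rule.

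STIFF and SOFT progenitor cells also came from different channels. Of 8225 genes measured, 202 were higher (2.46%) and 319 lower (3.88%) in STIFF, or 253 and 234 after TMM scaling. Under both tag rules 65 were higher (0.790%) and 62 lower (0.754%), and the median of all measured genes was -0.06. The early response genes that differed between the pools were higher in STIFF. Atf3 was at 565 CPM in STIFF and 114 CPM in SOFT, 4.97-fold (4.38 to 5.66) higher, with log2 ratios of 2.22 and, under the second rule, 1.55. Klf2 was at 657 and 166 CPM (3.95-fold, 3.54 to 4.41; log2 1.92 and 1.35), and Fosb, an AP-1 subunit, at 1102 and 367 CPM (3.01-fold, 2.78 to 3.25; log2 1.56 and 1.09). Of 8 measured AP-1 subunits 6 were higher in STIFF (median 1.0, or 0.58 with 4 higher under the second rule). Of 13 immediate early genes 8 were higher (median 0.68, or 0.15 with 5 higher under the second rule). Of 12 measured NF-kB and inflammatory genes 6 were higher (median 0.60, or 0.16 with 2 higher under the second rule). Pdzk1ip1 was at 210 CPM in STIFF and 59.7 CPM in SOFT (3.52-fold, 2.93 to 4.26; log2 1.66 and 1.23). Bglap3, of the osteocalcin family, was at 158 CPM in STIFF and 31.7 CPM in SOFT, but at 55.1 and 30.7 CPM under the second rule.

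Of 14 measured interferon-stimulated genes 8 were lower in STIFF than in SOFT progenitor cells (median -0.68), against 2 under the second rule. Of 12 hypoxia genes 8 were lower (median -0.70), against 3 under the second rule. Of 14 measured matrix and protease genes 4 were lower and 1, Spp1, was higher (median -0.29), against 2 lower under the second rule. Ndrg1 was at 77.4 CPM in STIFF and 271 CPM in SOFT (3.50-fold lower, 2.89 to 4.27; log2 -1.68 and -1.22). Hmox1, haem oxygenase 1, was at 16.6 and 59.7 CPM (3.59-fold lower, 2.37 to 5.65; log2 -1.39 and -1.37), with a lowest level in any other cell class of 15.2 and 22.2 CPM in the 2 pools. Foxq1 was at 9.59 CPM in STIFF and 80.9 CPM in SOFT (8.44-fold lower, 5.01 to 15.3; log2 -2.21 and -1.52), and Timp3 at 37.7 and 136 CPM (3.60-fold lower, 2.74 to 4.82; log2 -1.61 and -1.01). Ankrd1, a target of YAP, had 3 UMIs in STIFF cells and 235 in SOFT cells, a ratio of 0.0242 (0.00496 to 0.0716), with log2 ratios of -2.90 and, under the second rule, -1.13. It is a leading gene of the 383 cells, without which its ratio was -1.52. Timp1 was at 35.8 and 148 CPM (log2 -1.79 and -1.02), and its ratio was -0.03 without the 383 cells led by Igfbp7 and Tagln.

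**Figure D4:**
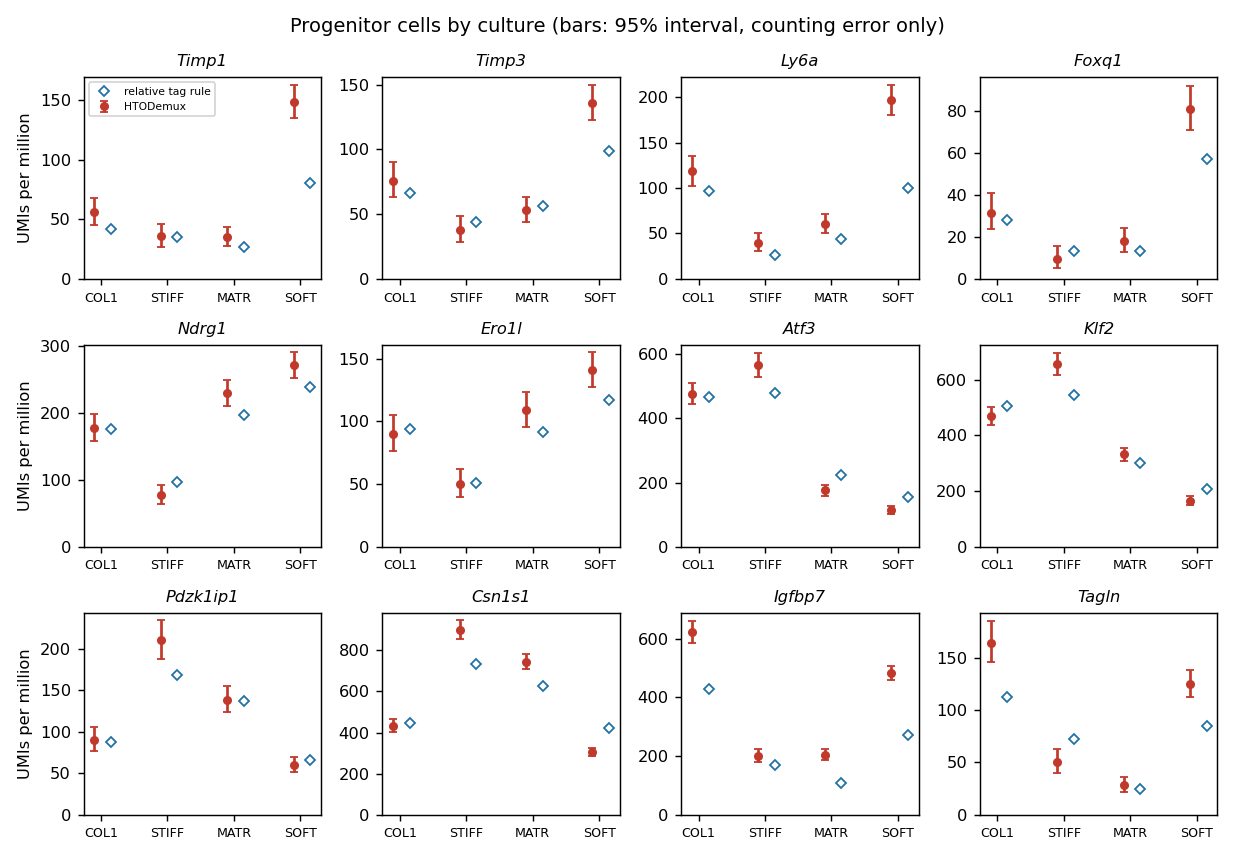
Levels in CPM of 12 genes in progenitor cells called for COL1, STIFF, MATR and SOFT, with red points and 95% counting intervals for HTODemux and blue diamonds for the second tag rule. Timp1, Foxq1 and Timp3 are highest in SOFT, Igfbp7 and Tagln in COL1, and Pdzk1ip1 and Klf2 in STIFF, under both rules.

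The markers of the progenitor cells were present in every culture. Progenitor cells of COL1 had 22177 CPM of Lcn2, those of STIFF 24880, those of MATR 20717 and those of SOFT 20233. Elf5 was at 236, 308, 324 and 240 CPM in COL1, STIFF, MATR and SOFT, and Kit at 126, 111, 114 and 93.7 CPM. The milk protein genes spread more. COL1 cells had 6328 CPM of Csn3, STIFF cells 10788, MATR cells 7591 and SOFT cells 4076, and at 8162, 11164, 7755 and 6751 CPM under the second tag rule. STIFF was highest and SOFT lowest for Csn3 under both rules. The summed basal markers in the same cells were 682 CPM for COL1, 480 for STIFF, 248 for MATR and 433 for SOFT. Over each pool they were 378 CPM in progenitor cells and 137 CPM in receptor-positive cells of the COL1-STIFF pool, and 290 and 118 CPM in those of the MATR-SOFT pool. Their part in the differences of contractile and matrix genes was not tested. Leaving out the 383 cells is no such test, since that group was formed from the same counts.

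**Figure D5:**
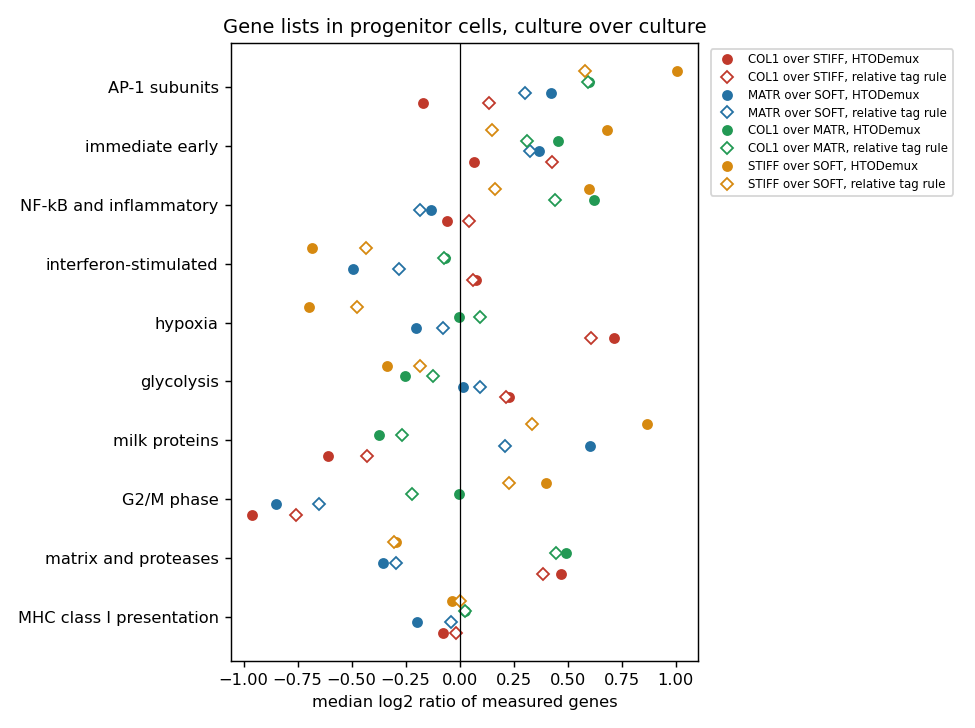
Median log2 ratio in progenitor cells of 10 gene lists for COL1 over STIFF, MATR over SOFT, COL1 over MATR and STIFF over SOFT, under both tag rules. Milk protein genes are below 0 in COL1 over STIFF and in COL1 over MATR and above 0 in MATR over SOFT and in STIFF over SOFT under both rules, nearer to 0 under the second.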

How the data were processed

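Per the submitters' processing notes, Cell Ranger 5.0.0, Seurat 4.2.0 and mm10 were used; the file headers name Cell Ranger 5.0.0. The deposited matrices hold UMI counts per gene and barcode, not normalized, with 3 antibody rows. How barcodes were selected before deposit is not given in the sources used here, and the labels name both V2 and V3 chemistry. The entries held 10615 and 8767 barcodes and 133608252 and 131036333 UMIs, and those deposited for the hashtags repeat the same gene counts. The pairing of tags with cultures was read from the names of the matrices.

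Members, gene lists and comparisons were chosen with earlier results of these data known. Counts were summed over cells and compared as ratios of CPM with exact conditional binomial intervals (scipy 1.17.1). Genes of at least 10 CPM on at least 1 side were measured. With 1 library per pool no model was fitted, and TMM scaling came from edgeR 4.0.16. The ratio step was tested on simulated counts. The genes named were taken among those of at least 200 UMIs and at least 50 CPM on 1 side, without mitochondrial, ribosomal, haemoglobin and sex-linked genes: the 12 highest and 12 lowest log2 ratios between pools, the 8 highest and 8 lowest of each comparison of cultures, the 15 highest and 15 lowest against receptor-positive cells by the pool nearer 0, the 20 most variable genes, the 7 markers and the genes of the gates, and the extremes of each list. Other genes in the text belong to the lists or were chosen after their values were seen. Tags were called with HTODemux (Seurat 5.3.0, quantile 0.99), and under the second rule a cell whose 2 tags were both at least 4 times their background was left out. Cells were clustered by the Leiden method in scanpy 1.11.5 on 1000 variable genes, 20 components and 15 neighbours. Doublets were scored and kept; the alternatives without them, and other limits, pseudocounts, floors and scalings, are given with the closing remarks. Promoter windows are from RefSeq.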

Additional observations from a re-analysis of the deposited data

Results flagged for a closer look

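The deposited matrices hold an antibody row beside those of the 2 hashtags in use, which the labels assign to no culture and which no comparison above uses. It had 553 counts in progenitor cells of the COL1-STIFF pool and 584 in those of the MATR-SOFT pool, above the 3 counts that a count of 0 allows. At least 1 such count was present in 26.3% of progenitor cells of the COL1-STIFF pool and 29.7% of those of the MATR-SOFT pool, with at most 20 and 14 in a single cell. Among receptor-positive cells the shares were 50.6% and 55.2% in these pools.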

How the results depend on the processing

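The limits are that 1 culture stands for each condition, that intervals cover counting error only, and that depth limits the counts of low genes, as does the number of tagged cells. No paired analysis was possible because each condition has 1 culture and the pools share fewer than 2 replicate numbers. Leaving out a replicate was not possible either. Of 118 named gene results, 1060 of 1062 values under the alternatives kept their direction, and of 37 list medians 347 of 348. The exceptions, MATR over SOFT, were Saa3 at -0.13 under the second tag rule, and, without the 383 cells led by Igfbp7 and Tagln, an alternative added after seeing the data, Tagln at 0.25 and the basal markers at 0.28. A change of floor leaves the ratio of a gene as it is, and a change of pseudocount cannot turn its direction. Part of this tally was therefore fixed in advance, and the named genes are mostly the extremes of each ranking, so it is no test of direction. Allowing no receptor UMI left 682 progenitor cells in the COL1-STIFF pool and 765 in the MATR-SOFT pool. With a pseudocount of 1 CPM in place of 10, the genes higher and lower numbered 78 and 47 between pools, 719 and 532 in COL1 over STIFF, 270 and 692 in MATR over SOFT, 467 and 815 in STIFF over SOFT, and 733 and 321 in COL1 over MATR. With a floor of 50 CPM they numbered 90 and 44 in COL1 over STIFF, 42 and 93 in MATR over SOFT, 92 and 120 in STIFF over SOFT, and 115 and 19 in COL1 over MATR, while 9 were lower between pools; this floor tests fewer genes. With the second tag rule they numbered 103 and 54, 31 and 93, 66 and 65, and 180 and 31 in the same 4 comparisons. At an HTODemux quantile of 0.95 they numbered 151 and 96 in COL1 over STIFF and 131 and 194 in STIFF over SOFT, and 43 were lower in COL1 over MATR. TMM scaling gave 141 higher and 146 lower in MATR over SOFT and 151 lower in COL1 over MATR. The mean CPM per cell gave 275 lower in COL1 over STIFF, 148 higher in MATR over SOFT and 175 lower in COL1 over MATR. Between pools, tagged cells alone gave 75 higher and 29 lower. Without the 383 cells, 300 were lower in COL1 over STIFF and 146 in COL1 over MATR. The cause of these shifts was not tested. Of the 16 named genes past 1.5-fold in each comparison of cultures, the second tag rule ended the call of 4 in COL1 over STIFF, 5 in MATR over SOFT, 1 in STIFF over SOFT and 5 in COL1 over MATR.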

Other observations

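Some genes of the signalling and junction lists also differed between the progenitor cells and receptor-positive cells. The choice of cells by Lcn2 and the receptors bears on this comparison. Over all measured genes, 10.0% were higher and 16.7% lower in progenitor cells in both pools. Notch1, the receptor, was at 132 CPM in progenitor cells and 15.5 CPM in receptor-positive cells of the COL1-STIFF pool, and at 155 and 12.1 CPM in the MATR-SOFT pool. Notch3 was lower, at 20.5 against 39.0 CPM in the COL1-STIFF pool and 23.5 against 43.2 CPM in the MATR-SOFT pool. Of 13 listed Notch pathway genes 7 passed the floor, Notch1, Dll1 and Hey1 were higher and Notch3 and Hes6 were lower. In the EGF family, 7 of 12 listed genes passed the floor. The receptor Egfr was at 18.2 CPM in progenitor cells and 1.30 CPM in receptor-positive cells of the COL1-STIFF pool, and at 12.8 and 0.554 CPM in the MATR-SOFT pool. Its feedback inhibitor Errfi1 was at 525 and 87.4 CPM in the COL1-STIFF pool and at 443 and 66.4 CPM in the MATR-SOFT pool. The ligands Areg and Btc and the receptor Erbb3 were lower in progenitor cells. Of 18 listed integrin and adhesion genes 16 passed the floor, 2 were higher and 3 were lower, near the shares of all measured genes. Of 13 listed claudin and junction genes 11 passed the floor, 4 were lower and 1, Gjb2, was higher. Cldn4, a tight junction protein, was at 61.8 CPM in progenitor cells and 819 CPM in receptor-positive cells of the COL1-STIFF pool, and at 92.2 and 968 CPM in the MATR-SOFT pool.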
